A study of Mus musculus with 10 samples.

Results

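The genes described are those of the mitochondrial respiratory chain and ATP synthase. They were chosen by symbol alone, as names that start with Nduf, Uqcr, Cox4, Cox5, Cox6, Cox7, Cox8 or Atp5 and the 4 Sdh genes. The choice gave 87 of the 17097 genes with a probe set, and 84 of them were among the 11037 genes bright enough to test. Cox4i2, Cox7a1 and Cox7b2, tissue isoforms of complex IV, were set aside as dim. The 87 members hold 77 subunits, 7 complex I assembly factors named Ndufaf, and 3 others: Cox7a2l, the isoform-like Ndufa4l2 and the pseudogene model Ndufs5-ps, whose probes may also bind the Ndufs5 transcript.

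The arrays measured RNA of CD4+ T cells from spleens of DBA/1 mice, an inbred strain. There were 2 arrays of CD4+ cells from naive mice and 2 from injected mice, with 3 arrays each of the CD49b+ and the CD25+ fraction sorted from CD4+ cells after injection. Injected mice had received 500000 immature dendritic cells in the peritoneum on each of the days 7, 5 and 3 before the spleens were taken, and no other genotype or agent is given. Cells of several mice were pooled, the labels do not say that replicates came from separate pools, and p-values then measure only the spread between these arrays, which may be technical. The labels do not state whether the CD49b+ gate left out CD25+ cells, and the naive and injected CD4+ groups hold all CD4+ cells.

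The respiratory chain passes electrons from NADH, through complex I, and from succinate, through complex II, to ubiquinone, complex III, cytochrome c and complex IV, where oxygen is reduced. Complexes I, III and IV pump protons across the inner mitochondrial membrane, and ATP synthase uses the return flow to make ATP. T cells change their reliance on this system with activation and between effector, memory and regulatory states. The complexes other than II also hold subunits encoded in mitochondrial DNA, and none of the 13 such genes listed had a probe set with its own gene name here.

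The level of a gene is its log2 value, on which a difference of 1 is a 2-fold difference. Differences are given ± standard error from 1 limma fit of the 4 groups, and a gene is called at a two-sided adjusted p under 0.05 (Benjamini-Hochberg over the 11037 genes). Array medians over all probe sets were 4.79 to 4.81 on the CD4+ arrays and 4.61 to 4.65 on the subset arrays, and the 90th percentiles 8.44 to 8.50 and 8.50 to 8.57. The poly-A control signal stood apart on replicate 3 of the CD49b+ cells, at 7.86, and of the CD25+ cells, at 7.69, against 5.13 to 6.36 on the others. The Gapdh 3' minus 5' control difference was -0.01 to 0.26 on the CD4+ arrays and 0.23 to 0.69 on the subset arrays. All 5 measured T cell markers lay above the array median on every array. Il2ra, which encodes CD25, averaged 8.83 in CD25+, 6.29 in CD49b+ and 4.17 in CD4+ cells of injected mice, while Itga2, which encodes CD49b, averaged 5.47, 5.78 and 5.82 and so did not mark the CD49b+ sort. The summed linear level of 6 natural killer cell markers was 706 to 1030 in CD49b+, 204 to 341 in CD25+ and 290 to 295 in CD4+ cells of injected mice. The rise in CD49b+ cells was led by Gzma and Nkg7. Ncr1 also rose, by 0.65 in CD49b+ and 0.73 in CD25+ cells against CD4+ cells of injected mice, and both were called. Klrk1 rose by 0.53 in CD49b+ cells, which was called, and by 0.21 in CD25+ cells, which was not. Klrb1c averaged 4.58, 4.57 and 4.53 in CD49b+, CD25+ and injected CD4+ cells, under the array medians. Klrd1 averaged 6.82, 5.36 and 7.20 in the same groups. It was called lower in CD25+ than in CD4+ cells (-1.84) and was not called in CD49b+ cells (-0.39). The sum of 8 myeloid and dendritic cell markers was 506 to 621 in naive CD4+, 295 to 316 in injected CD4+, 199 to 213 in CD49b+ and 318 to 454 in CD25+ cells. Of these, Itgax (-1.12), Cybb (-1.27) and Adgre1 (-0.85) were called lower after injection. In CD25+ against CD4+ cells of injected mice the markers split, with Fcer1g (1.90) and Cybb (0.60) called higher and Itgax (-1.17) and Adgre1 (-0.52) lower. The sum of 6 measured B cell markers was 294 to 320 in naive CD4+, 191 to 219 in injected CD4+, 176 to 177 in CD49b+ and 213 to 241 in CD25+ cells. These markers split as well. Cd22 was called lower after injection (-1.02) and in CD49b+ against CD4+ cells of injected mice (-0.65). Cd79b was called higher in CD49b+ (0.96) and CD25+ cells (1.53) than in those CD4+ cells, and Cd79a was not called. The part of these differences in the results that follow was not tested, and in pooled cells fewer cells of a type and less RNA per cell cannot be told apart.

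The median level of the 84 tested members was 9.58 and 9.67 on the arrays of naive CD4+ cells and 9.42 and 9.61 on those of injected CD4+ cells. It was 9.86, 10.09 and 9.98 on the CD49b+ arrays and 9.64, 9.99 and 9.93 on the CD25+ arrays. All CD49b+ medians lay above all CD4+ medians, and replicate 1 of the CD25+ cells fell between the naive arrays. By mean the order was CD49b+ (9.98 ± 0.113 SD), CD25+ (9.85 ± 0.185), naive CD4+ (9.62 ± 0.062) and injected CD4+ (9.52 ± 0.132). The CD4+ groups differed by less than the pooled SD of 0.139. So did the means of the subsets, but the CD49b+ median lay above the CD25+ median of the same replicate number for each of the 3 numbers. Within groups the members moved together between arrays. Replicate 1 of the injected CD4+ cells was the lower of the pair for 82 of the 84 members, against 59.1% of all tested genes, and replicate 1 of the CD25+ cells the lowest of 3 for 81, against 44.4%.

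**Figure D1:**
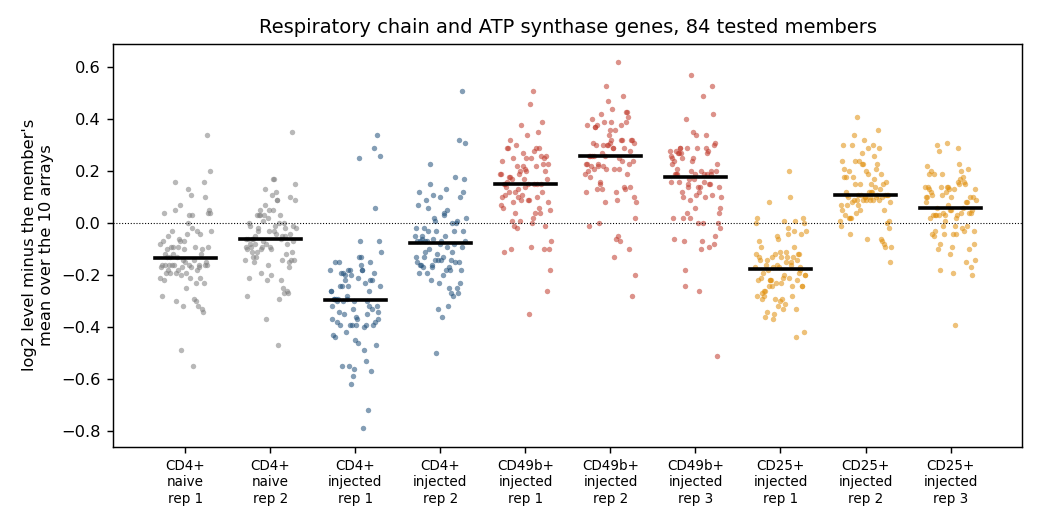
Each point is 1 of the 84 tested members on 1 array, as its log2 level minus its mean over the 10 arrays, and the black bar is the median. Most members lie above 0 on the 3 CD49b+ arrays and on replicates 2 and 3 of the CD25+ cells, and below 0 on replicate 1 of the injected CD4+ cells and of the CD25+ cells. The other CD4+ arrays were low as well, with median member levels of 9.58, 9.67 and 9.61, against 9.64 on replicate 1 of the CD25+ cells.

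Injection was assessed by comparing CD4+ cells of injected and naive mice. None of the 84 tested members was called, where 1.39% of all tested genes were (0.0272% higher and 1.36% lower). At an unadjusted p under 0.05 there were 1 higher and 2 lower members. Of the 11037 tested genes 270 were higher and 1095 lower at that threshold. The median member difference was -0.08, and that of all genes -0.03. Complex I assembly factors gave the lowest values. Ndufaf1, needed early in complex I assembly, was at 7.28 and 7.43 in naive and 6.95 and 6.96 in injected mice (-0.40 ± 0.10, adjusted p = 0.118). Ndufaf3, another such factor, was at 7.56 and 7.60 against 6.97 and 7.23 (-0.48 ± 0.14, adjusted p = 0.182). Arrays of the groups did not overlap for either gene, with injected mice lower, as for 19 members in all and 30% of all tested genes. Cox6a2, the heart and muscle isoform of a complex IV subunit, was at 5.64 and 5.33 in naive and 5.77 and 5.80 in injected mice (0.30 ± 0.11, adjusted p = 0.25). The Sdh genes differed by -0.22 (Sdhc) to -0.03 (Sdhb) and none was called.

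CD49b+ cells carried more transcript of most respiratory chain genes than CD4+ cells of injected mice. Of the 84 tested members 53 (63.1%) were called higher and 4 (4.76%) lower, where 29.9% of all tested genes were called higher and 23.5% lower. The CD49b+ arrays lay wholly above the CD4+ arrays for 65 members, and for 37.3% of all tested genes. The median member difference was 0.38, against 0.03 over all genes. The rise was small for most members and spread over every complex: the called members higher were 20 of 33 complex I members other than assembly factors, all 4 of complex II, 5 of 7 of complex III, 7 of 16 tested of complex IV and 15 of 17 of ATP synthase. Those called lower were the assembly factor Ndufaf4 and the complex IV group genes Cox7a2l, Cox8c and Cox6a2.

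Replicate 1 of the injected CD4+ cells bore on these counts: without it 22 members (26.2%) were called higher and 3 (3.57%) lower, beside 22.6% and 16.9% of all genes, with a member median of 0.28 against 0.02. Whichever array was left out, 22 of the 53 higher and 3 of the 4 lower calls held. Centring the arrays on their medians moved the median of all genes from 0.03 to 0.22 and that of the members to 0.57, which is as far above all genes as before, and gave 74 members higher and 2 lower, with 44.4% of all genes higher and 12.3% lower. Quantile normalization gave 36 members higher and 4 lower, with 29% and 20.4% of all genes and a member median of 0.28 against 0.04, and 18 of the 57 calls were lost. The members are bright genes, with a median at percentile 95 to 96.7 of the arrays. With only genes tested that had at least 2 arrays above the 70th percentile, the member median was 0.39 against 0.15 over all genes. Of the genes so tested 37.1% were higher and 16.3% lower, with 52 members higher and 3 lower.

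**Figure D2:**
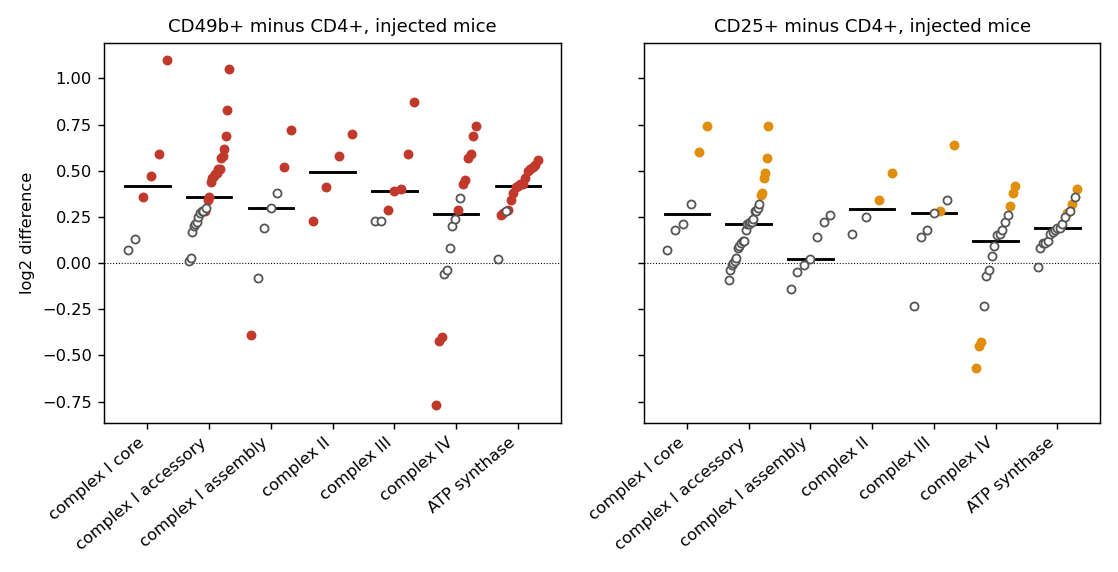
Each point is 1 tested member, as its log2 difference from CD4+ cells of injected mice (vertical axis) within its complex (horizontal axis), for CD49b+ cells on the left and CD25+ cells on the right. Filled points are called, open ones are not, and bars are medians; every complex has a median above 0 on both sides, and the 3 called members below -0.35 in complex IV are Cox7a2l, Cox8c and Cox6a2.

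In complex I, 4 of the 6 core subunits were called higher. Ndufs8, a core subunit that holds iron-sulfur clusters, was at 9.0 and 9.47 in CD4+ cells and at 10.30, 10.41 and 10.28 in CD49b+ cells, a 2.14-fold difference (1.10 ± 0.15, adjusted p = 0.000213). Ndufv1, which binds NADH, was at 8.98 and 9.22 against 9.75, 9.68 and 9.66 (0.59 ± 0.09, adjusted p = 0.000356). The CD49b+ arrays lay above the CD4+ arrays for both. Ndufs1 (0.36) and Ndufv2 (0.47), core subunits with iron-sulfur clusters, were also called, the latter not without replicate 1 of the CD4+ cells (0.36, adjusted p = 0.094), while Ndufs3 (0.07) and Ndufs7 (0.13) were not. Ndufs8 has 4 probe sets: another rose by 1.09, and the other two, at 0.15 and -0.14, were not called.

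Accessory subunits surround the complex I core. Of the 27 here, 16 were called higher and none lower, and 6 of the 16 calls held whichever array was left out. Ndufb7, in the membrane arm, was at 9.57 and 9.69 in CD4+ and 10.57, 10.72 and 10.76 in CD49b+ cells, a 2.08-fold difference (1.05 ± 0.12, adjusted p = 7.97e-05), and its other probe set gave 0.97. Ndufb9, also of the membrane arm, was at 9.25 and 9.51 against 10.11, 10.31 and 10.19 (0.83 ± 0.12, adjusted p = 0.000313). Ndufa8 was at 9.15 and 9.35 against 9.87, 9.99 and 9.97 (0.69 ± 0.12, adjusted p = 0.000888). Arrays of the groups were apart for the 3 genes. Ndufc2 followed at 0.62 ± 0.15, a call lost without replicate 1 of the CD4+ cells (0.46, adjusted p = 0.065). At the other end Ndufa6 (0.03) and Ndufa7 (0.01) were not called.

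The 7 complex I assembly factors did not move together. Ndufaf1 was at 6.95 and 6.96 in CD4+ and 7.66, 7.76 and 7.61 in CD49b+ cells (0.72 ± 0.09, adjusted p = 0.000208). Ndufaf3 rose by 0.52 ± 0.13, a call lost without replicate 1 of the CD4+ cells (0.39, adjusted p = 0.0822). Ndufaf4 was at 8.77 and 8.56 in CD4+ and at 8.17, 8.39 and 8.26 in CD49b+ cells (-0.39 ± 0.10, adjusted p = 0.00885). Its CD49b+ arrays lay below the CD4+ ones, but the call was lost without replicate 1 of the CD4+ cells (-0.28, adjusted p = 0.0923) and with median-centred arrays (-0.20, adjusted p = 0.117). It was also lost with the mean of the Ndufaf4 probe sets, as the dimmer one gave -0.06 and was not called. The other 4 assembly factors were not called.

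All 4 subunits of complex II, succinate dehydrogenase, were called higher in CD49b+ cells. Sdhc, a membrane anchor, was at 7.08 and 7.34 in CD4+ and 7.83, 7.93 and 7.95 in CD49b+ cells (0.70 ± 0.13, adjusted p = 0.00185). Sdhb, the iron-sulfur subunit, was at 9.78 and 10.03 against 10.46, 10.55 and 10.46 (0.58 ± 0.10, adjusted p = 0.00124). The arrays were apart for both, and both calls held whichever array was left out. Sdhd, the other anchor, rose by 0.41 ± 0.11, a call lost without replicate 1 of the CD4+ cells (0.31, adjusted p = 0.116). Sdha, the subunit that oxidises succinate, rose by 0.23 ± 0.08 (adjusted p = 0.0373). That call was lost without either CD4+ array (adjusted p = 0.161 and 0.0933) or replicate 1 or 3 of the CD49b+ cells (0.0805 and 0.106), and the mean of its probe sets gave -0.08. Of the other probe sets of Sdha, the brighter rose by 0.47 (adjusted p = 0.00152) and a dimmer one fell by 0.82.

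In complex III, which hands electrons to cytochrome c, 5 of 7 members were called higher. Uqcr11, a small subunit, was at 8.21 and 8.65 in CD4+ and 9.28, 9.42 and 9.21 in CD49b+ cells, a 1.83-fold difference (0.87 ± 0.16, adjusted p = 0.00138). This was the single call of the complex that held whichever array was left out. Without replicate 1 of the CD4+ cells Uqcrq (0.59 ± 0.18) went to 0.30 (adjusted p = 0.228), Uqcr10 (0.40 ± 0.15) to 0.22 (adjusted p = 0.334) and Uqcrc1 (0.39 ± 0.10) to 0.28 (adjusted p = 0.09). Uqcrq was also lost without replicate 2 of the CD49b+ cells (0.52, adjusted p = 0.0634), with -0.16 for the mean of its probe sets, and Uqcr10 without any 1 of the CD49b+ arrays (adjusted p = 0.0659 to 0.116). Uqcrb (0.23) and the Rieske iron-sulfur protein gene Uqcrfs1 (0.23) were not called.

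Complex IV held the members with the widest range of differences. Cox5a was at 11.29 and 11.37 in CD4+ and 12.01, 12.05 and 12.15 in CD49b+ cells (0.74 ± 0.10, adjusted p = 0.000221), and its other 2 probe sets both gave 0.92. Cox5b was at 10.74 and 10.86 against 11.36, 11.54 and 11.55 (0.69 ± 0.11, adjusted p = 0.000718). Another Cox5b probe set gave 0.71, but a dim one was called lower (-0.56), and the call was lost with the mean of the probe sets. Cox5a and Cox5b encode nuclear subunits of the matrix side, and for both genes the arrays were apart. Cox6c (0.59), Cox6b1 (0.57), Cox6a1 (0.43) and Cox7a2 (0.45), the widely expressed isoforms where isoforms exist, were called higher too, Cox7a2 not without replicate 1 of the CD4+ cells (0.33, adjusted p = 0.0989). Cox4i1 (0.24), Cox8a (0.35) and Ndufa4 (0.20) were not called.

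The members that fell included Cox7a2l, which encodes a factor that links complexes III and IV in supercomplexes. It was at 11.54 and 11.71 in CD4+ cells and at 10.94, 10.92 and 10.69 in CD49b+ cells, 1.71-fold lower (-0.77 ± 0.11, adjusted p = 0.000285). Its other 2 probe sets gave -0.66 and -0.65, and it was called lower under quantile normalization (-0.92) and centring (-0.58). Cox8c, a testis isoform, was at 6.99 and 7.04 against 6.55, 6.53 and 6.71 (-0.42 ± 0.08, adjusted p = 0.00222). Cox6a2 was at 5.77 and 5.80 against 5.38, 5.38 and 5.40 (-0.40 ± 0.10, adjusted p = 0.00619), a call lost with median-centred arrays (-0.21, adjusted p = 0.0826) and with the filter at the 70th percentile. All 3 had CD49b+ arrays below the CD4+ ones. Cox6b2 (-0.06), Cox8b (-0.04) and Ndufa4l2 (0.08) stayed near 0.

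Of the 17 ATP synthase members, 15 were called higher. Atp5pb, subunit b of the peripheral stalk, was at 10.02 and 10.34 in CD4+ and 10.73, 10.78 and 10.70 in CD49b+ cells (0.56 ± 0.13, adjusted p = 0.00514). Atp5md, a small subunit of the membrane part, was at 9.23 and 9.35 against 9.81, 9.83 and 9.79 (0.52 ± 0.10, adjusted p = 0.00152). Their arrays did not overlap, and the call of Atp5pb was lost without replicate 1 of the CD4+ cells (0.40, adjusted p = 0.0605). Atp5j (0.53) and Atp5l (0.51) were lost likewise (adjusted p = 0.0849 and 0.0889). Atp5c1, Atp5g3, Atp5j2 and Atp5md were called whichever array was left out. Of the 3 genes for the proton-carrying c subunit, Atp5g3 rose by 0.46 ± 0.09 while Atp5g1 (0.28 ± 0.17) and Atp5g2 (0.02 ± 0.14) were not called.

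**Figure D3:**
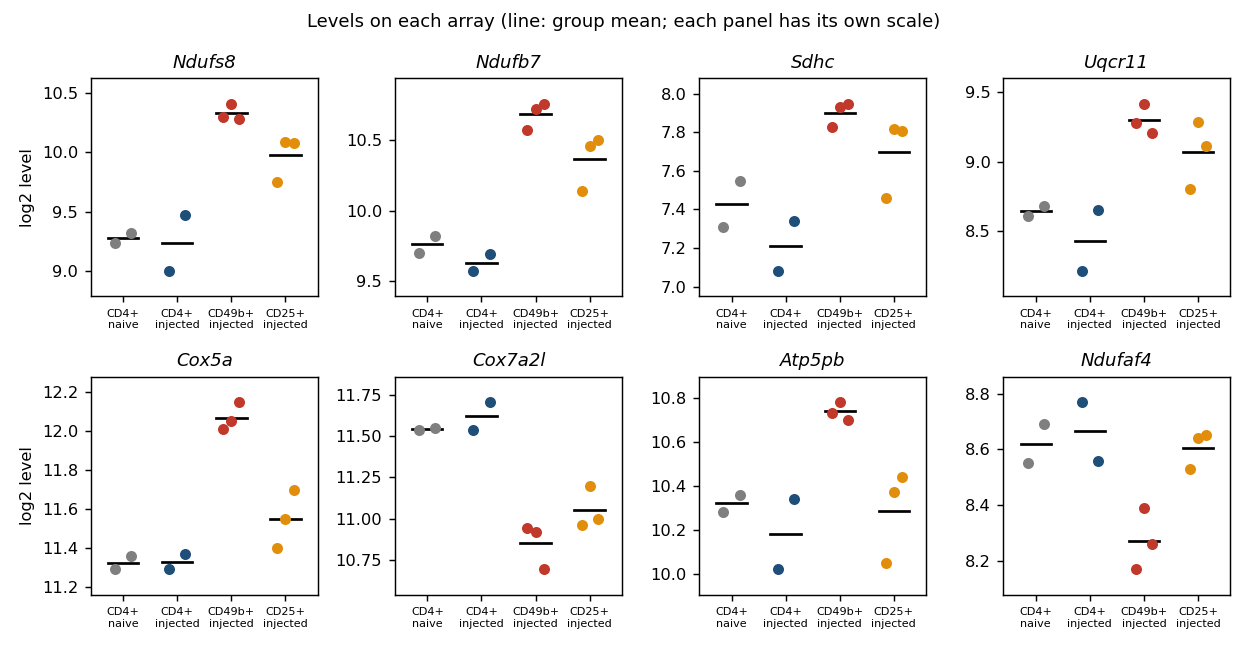
Log2 level of 8 members (panels, each with its own vertical scale) on each array of the 4 groups, with bars at group means. The CD49b+ arrays are above both CD4+ groups for Ndufs8, Ndufb7, Sdhc, Uqcr11, Cox5a and Atp5pb and below them for Cox7a2l and Ndufaf4, and the CD25+ arrays of Cox7a2l also lie below the CD4+ ones.

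CD25+ cells were compared with the same 2 CD4+ arrays, so that this comparison and the preceding one share their controls. Of the 84 tested members 18 (21.4%) were called higher and 3 (3.57%) lower, where 38.6% of all tested genes were called, 20.8% higher and 17.8% lower. The share called higher was thus near that of all genes, while the median difference was 0.19 against 0.02. Among genes with at least 2 arrays above the 70th percentile it was 0.20 against 0.10. By complex the members called higher were 8 of 33 complex I members other than assembly factors, 2 of 4 of complex II, 2 of 7 of complex III, 3 of 16 tested of complex IV and 3 of 17 of ATP synthase. No assembly factor was called.

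The count of 18 rested on single arrays. It was 4 without replicate 1 of the injected CD4+ cells and 33 without replicate 1 of the CD25+ cells, where 13.9% and 20.9% of all genes were higher. It was 11 without replicate 2 or 3 of the CD25+ cells, beside 17.6% and 19% of all genes. It was 9 under quantile normalization, 9 without both arrays of high poly-A signal and 10 in a fit of these groups alone, beside 19.9%, 18.8% and 16.7% of all genes. It was 47 with arrays centred on their medians, where all genes had a median of 0.18, with 35.9% higher and 9.75% lower. The 4 higher calls that held whichever array was left out were Ndufs8, Ndufv1, Ndufb7 and Ndufb9, and the 3 lower calls held as well.

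Ndufs8 was at 9.75, 10.09 and 10.08 on the CD25+ arrays (0.74 ± 0.15 from CD4+ cells, adjusted p = 0.00318). Its other probe sets gave 0.66, -0.19 and -0.15, and the call was lost with the mean of the probe sets. Ndufv1 was at 9.67, 9.73 and 9.70 (0.60 ± 0.09, adjusted p = 0.000557), though its other probe set gave 0.22 and was not called. Ndufb7 was at 10.14, 10.46 and 10.50 (0.74 ± 0.12, adjusted p = 0.00109). Replicate 1 of the CD25+ cells was the lowest for the 3 genes, and still above both CD4+ arrays. Ndufb9 differed by 0.57 ± 0.12 (adjusted p = 0.00416).

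In complexes II and III, Sdhc was at 7.46, 7.82 and 7.81 (0.49 ± 0.13, adjusted p = 0.0164) and Sdha at 10.45, 10.49 and 10.52 (0.34 ± 0.08, adjusted p = 0.0086). Uqcr11 was at 8.80, 9.29 and 9.11 (0.64 ± 0.16, adjusted p = 0.0108). These arrays did not overlap those of the CD4+ cells, but without replicate 1 of the CD4+ cells the 3 calls were lost (adjusted p = 0.138, 0.0612 and 0.11). Cox5b (0.42) in complex IV and Atp5d (0.40), a subunit of the ATP synthase central stalk, were called and lost in the same way (adjusted p = 0.104 and 0.0921), and the mean of the Cox5b probe sets gave 0. Cox5a gave 0.22 ± 0.10 and was not called. Ndufa5 (0.46), Ndufab1 (0.38) and Ndufa12 (0.37), complex I accessory subunits, were called here and not in CD49b+ cells, but CD49b+ minus CD25+ differences of -0.26, -0.10 and -0.07 were not called either. Dimmer probe sets of Ndufa12 and Ndufab1 fell by 1.56 and 0.33, and the call of Ndufa5 was lost without replicate 1 of the CD4+ cells (0.33, adjusted p = 0.0905). A dimmer probe set of Sdha was also called lower (-0.47). The brightest of its other probe sets gave 0.18 and was not called, and the mean of the Sdha probe sets gave -0.05.

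Cox7a2l was at 10.96, 11.20 and 11.00 in CD25+ cells (-0.57 ± 0.11 from CD4+ cells, adjusted p = 0.00263). Cox8c was at 6.53, 6.58 and 6.59 (-0.45 ± 0.08, adjusted p = 0.00233), and Cox6a2 at 5.29, 5.40 and 5.38 (-0.43 ± 0.10, adjusted p = 0.00626). On each array the 3 genes lay below the CD4+ cells of injected mice, and all stayed called under quantile normalization and centring. Cox6a2 lay not far above the CD25+ array medians of 4.64 and 4.65, and its call was lost with the filter at the 70th percentile.

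Compared directly, CD49b+ cells had higher levels than CD25+ cells for 15 members (17.9%) and lower for 1 (1.19%), where 17.5% of all tested genes were higher and 12.4% lower. The CD49b+ arrays lay wholly above the CD25+ arrays for 40 members, and for 24.3% of all tested genes. The median difference was 0.20 against 0.03. The share called higher was near that of all genes in this fit. With the replicate number as a block, 31 members were higher and 2 lower in a fit of the 6 subset arrays, beside 20.7% and 15.2% of all genes. A fit of all 10 arrays with the block gave 33 and 2, beside 21.3% and 15.2%. The numbers pair the subset arrays by their values: the deviations of like-numbered arrays correlated at 0.16, 0.37 and 0.64 over all tested genes, though the labels do not say what a number marks.

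The 15 were 5 ATP synthase members, 4 complex I accessory subunits, 2 assembly factors, 1 gene each of complexes II and III and 2 of complex IV. Cox5a, at 12.01, 12.05 and 12.15 in CD49b+ and 11.40, 11.55 and 11.70 in CD25+ cells, differed by 0.52 ± 0.09 (adjusted p = 0.00174). Ndufaf1, at 7.66, 7.76 and 7.61 against 7.03, 7.26 and 7.23, differed by 0.50 ± 0.08 (adjusted p = 0.00169). Atp5pb, at 10.73, 10.78 and 10.70 against 10.05, 10.37 and 10.44, differed by 0.45 ± 0.12 (adjusted p = 0.0159). No CD25+ array reached the CD49b+ range for these 3 genes, and theirs were the 3 higher calls that held whichever array was left out.

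Other members called higher were the assembly factor Ndufaf6 (0.52 ± 0.13), Uqcrfs1 (0.46 ± 0.12), Ndufa8 and Atp5l (both 0.39), Ndufa1 (0.37), Sdhb (0.33 ± 0.09) and Ndufb7 (0.32 ± 0.11, adjusted p = 0.0489). For Uqcrfs1 the CD25+ arrays, at 9.27, 9.65 and 9.56, were under the CD49b+ arrays, at 9.86, 10.10 and 9.90, and the CD4+ arrays, at 9.56 and 9.89, spanned both. Each of these 7 calls was lost without at least 1 array, as for Ndufaf6, Uqcrfs1, Ndufa8, Atp5l, Sdhb and Ndufb7 without replicate 1 of the CD25+ cells (adjusted p = 0.0591, 0.0654, 0.0583, 0.102, 0.0801 and 0.143) and for Ndufa1 without replicate 2 of the CD49b+ cells (0.0532). Ndufaf4 was lower in CD49b+ cells (-0.33 ± 0.09, adjusted p = 0.0184), a call lost without replicate 1 or 3 of the CD49b+ cells or replicate 3 of the CD25+ cells (adjusted p = 0.0634, 0.0539 and 0.0513). That call was also lost with the mean of the Ndufaf4 probe sets, the dimmer of which gave -0.06. Ndufv1 differed by 0.00, with a 95% interval of -0.18 to 0.17, and Sdha by -0.11 (-0.27 to 0.05). The block added calls for Ndufs8 (0.36, adjusted p = 0.02), Cox8a (0.39, adjusted p = 0.0231), Cox5b (0.27, adjusted p = 0.0295) and Ndufb9 (0.26, adjusted p = 0.0332), and a lower call for Ndufa5 (-0.26, adjusted p = 0.0497). Higher calls numbered 4 without replicate 1 of the CD25+ cells and 5 and 8 without replicates 2 and 3 of the CD49b+ cells, beside 12.6%, 14.9% and 14.1% of all genes. They numbered 5 without both arrays of high poly-A signal and 26 with arrays centred on their medians, beside 12.5% and 20.1%.

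**Figure D4:**
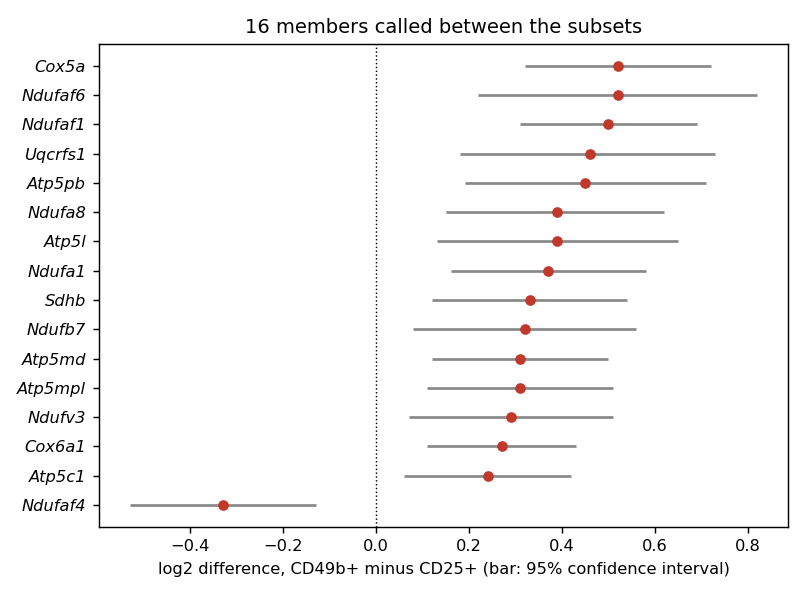
Log2 difference of CD49b+ minus CD25+ cells (horizontal axis) with its 95% confidence interval for the 16 members called between the subsets. Of these, 15 lie between 0.24 and 0.52, and Ndufaf4 lies at -0.33.

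Genes that serve the same system were followed in lists outside the members. The citric acid cycle, which feeds NADH and succinate to the chain, had 12 of 15 tested genes (80%) higher and 0 lower in CD49b+ than in CD4+ cells, and 5 (33.3%) higher and 1 lower in CD25+ cells. Over all tested genes 29.9% were higher and 23.5% lower in CD49b+ cells, and 20.8% and 17.8% in CD25+ cells, as for the lists that follow. Idh3a, the catalytic subunit of the NAD-dependent isocitrate dehydrogenase, was at 8.69 and 8.85 in CD4+, 10.08, 10.18 and 10.23 in CD49b+ and 8.91, 9.40 and 9.39 in CD25+ cells, and was 1.91-fold higher in CD49b+ than in CD25+ cells (0.93 ± 0.13, adjusted p = 0.000528). Citrate synthase, Cs, was at 9.68 and 9.71 in CD4+ cells, and rose by 0.82 ± 0.11 in CD49b+ and 0.50 ± 0.11 in CD25+ cells. Fumarate hydratase, Fh1, rose by 0.73 and 0.67. Without replicate 1 of the CD4+ cells the list had 7 genes higher in CD49b+ and 2 in CD25+ cells. Of all genes 22.6% and 13.9% were then higher, as for the lists that follow.

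Of 28 tested electron carriers and other assembly factors, 11 (39.3%) were higher and 1 lower in CD49b+ than in CD4+ cells, against 29.9% and 23.5% of all genes, and 5 (17.9%) and 0 in CD25+ cells, where the share higher was below the 20.8% of all genes. Atpif1, the inhibitor that keeps ATP synthase from running backwards, was at 8.18 and 8.54 in CD4+, 9.70, 9.87 and 9.75 in CD49b+ and 9.47, 9.76 and 9.51 in CD25+ cells. It rose 2.66-fold (1.41 ± 0.14, adjusted p = 3.01e-05) and 2.32-fold (1.22 ± 0.14, adjusted p = 0.000127), more than any member did. Uqcc2, an assembly factor of complex III, was at 7.91 and 8.31 in CD4+ and 9.31, 9.34 and 9.29 in CD49b+ cells (1.2 ± 0.16, adjusted p = 0.000213), and at 8.21, 8.66 and 8.72 in CD25+ cells, not called. Cox15, which makes heme a for complex IV, rose by 0.94 ± 0.11 and 0.57 ± 0.11. Of 9 mitochondrial carriers and pores, 6 (66.7%) were higher in CD49b+ cells, led by the outer membrane channel Vdac3 (1.07 ± 0.11) and the ADP/ATP carrier Slc25a4 (0.82 ± 0.14), and 2 (22.2%) in CD25+ cells, of which none remained without replicate 1 of the CD4+ cells. Of 72 mitochondrial ribosomal proteins, 34 (47.2%) were higher and 2 lower in CD49b+ cells, against 29.9% and 23.5% of all genes, and 14 (19.4%) and 2 in CD25+ cells, where the share higher was near the 20.8% of all genes, the first of these counts falling to 19 and the third to 6 without replicate 1 of the CD4+ cells.

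Regulators of mitochondrial biogenesis were called in both directions. In CD49b+ against CD4+ cells 4 of 16 (25%) were higher and 7 (43.8%) lower, beside 29.9% and 23.5% of all genes, with a median of -0.15, and this split turned with the arrays centred on their medians, to 6 higher and 4 lower and a median of 0.05. Against CD25+ cells 1 (6.25%) was higher and 7 (43.8%) lower, beside 17.5% and 12.4% of all genes, and the split was the same under quantile normalization and centring. Ppargc1b, a coactivator that drives mitochondrial genes, was at 7.71 and 7.75 in CD4+, 7.0, 6.80 and 6.84 in CD49b+ and 7.79, 7.42 and 7.61 in CD25+ cells (-0.84 ± 0.11 from CD4+ cells, adjusted p = 0.000208). Myc, a transcription factor of growth, was at 9.17 and 9.42, at 8.76, 8.69 and 8.21 and at 9.34, 9.56 and 9.13 in the same groups (-0.74 ± 0.18, adjusted p = 0.00579), a call lost without replicate 2 of the CD4+ cells (-0.61, adjusted p = 0.0527). The CD49b+ arrays were the lowest for both genes. Tfb2m, a mitochondrial transcription factor, fell by 0.59 ± 0.15 (adjusted p = 0.00878). Esrra, a nuclear receptor that binds promoters of respiratory genes, went the other way, at 6.92 and 7.14 in CD4+, 7.52, 7.58 and 7.40 in CD49b+ and 6.89, 7.04 and 6.92 in CD25+ cells (0.55 ± 0.09 between the subsets, adjusted p = 0.00119).

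**Figure D5:**
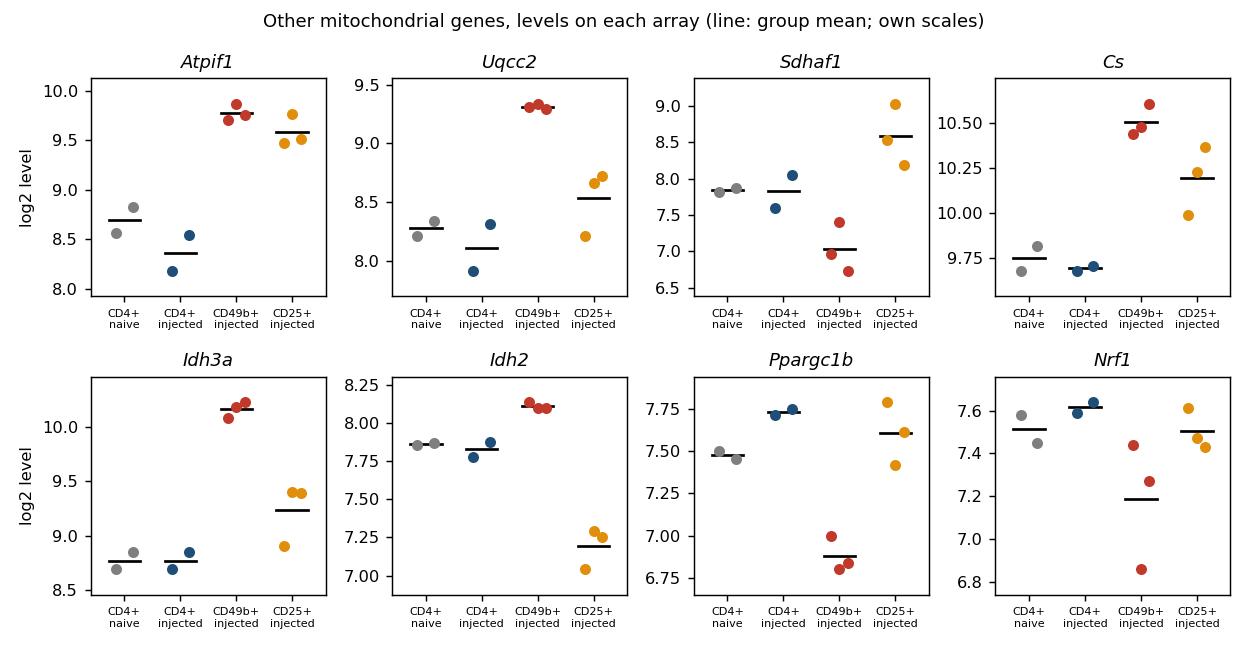
Log2 level of 8 other mitochondrial genes (panels, own vertical scales) on each array of the 4 groups, with bars at group means. Atpif1, Uqcc2, Cs and Idh3a are highest on the CD49b+ arrays or level with CD25+ ones, Ppargc1b is lowest on the CD49b+ arrays, and Sdhaf1 and Idh2 separate CD49b+ from CD25+ cells in opposite directions.

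Of 15 tested genes of antioxidant defence and quality control, 6 (40%) were higher and 1 lower in CD49b+ than in CD4+ cells, against 29.9% and 23.5% of all genes, and 4 (26.7%) and 0 in CD25+ cells, against 20.8% and 17.8%. Mfn2, a fusion protein of the outer membrane, was at 6.51 on both CD4+ arrays, at 7.11, 6.85 and 7.04 in CD49b+ cells (0.49 ± 0.10, adjusted p = 0.00257) and at 6.48, 6.62 and 6.37 in CD25+ cells (-0.02), though the mean of its probe sets gave -0.04 in CD49b+ cells. Gpx4, which reduces lipid peroxides, rose by 0.62 ± 0.14 in CD25+ cells, a call lost without replicate 1 of the CD4+ cells (0.40, adjusted p = 0.0568).

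Promoter windows were searched because the members rose together across complexes while Nrf1, whose product binds promoters of respiratory genes, did not rise. Nrf1, singled out after its values were seen, was at 7.59 and 7.64 in CD4+ and 7.44, 6.86 and 7.27 in CD49b+ cells (-0.42 ± 0.15, adjusted p = 0.0374), a call lost without replicate 1 of the CD4+ cells (adjusted p = 0.106) and with centring (adjusted p = 0.224). RefSeq windows of 300 bases (250 before the start and 50 after, GRCm38.p6) were at hand for 70 of the 87 members. The full palindromic NRF1 motif, read on both strands, was in the windows of 7 of the 70 (10.0%) and of 1.47% of 17491 protein-coding genes. It was found in 4 of 44 members called higher in CD49b+ cells and in 3 of the other 26. The 180 bases before the start are shown 5′ to 3′ on the gene's strand, with this motif in capitals, for 2 members called higher in CD49b+ cells, 1 not called and 1 called lower, all chosen after their values were seen. They are Ndufa11, an accessory subunit of complex I (0.58, a call lost without replicate 1 of the CD4+ cells, chr17:56717582-56717761, + strand), Cox6a1 (0.43, chr5:115348959-115349138, - strand), Atp5g2 (0.02, chr15:102671048-102671227, - strand) and Ndufaf4 (-0.39, chr4:24897903-24898082, + strand).
Ndufa11: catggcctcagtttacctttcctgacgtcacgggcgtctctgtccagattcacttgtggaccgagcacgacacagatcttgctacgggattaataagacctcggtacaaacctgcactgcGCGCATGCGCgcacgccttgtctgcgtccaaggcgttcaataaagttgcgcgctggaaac
Cox6a1: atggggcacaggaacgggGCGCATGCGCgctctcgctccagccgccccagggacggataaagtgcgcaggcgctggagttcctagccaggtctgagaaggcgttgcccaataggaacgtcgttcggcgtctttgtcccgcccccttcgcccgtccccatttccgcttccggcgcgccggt
Atp5g2: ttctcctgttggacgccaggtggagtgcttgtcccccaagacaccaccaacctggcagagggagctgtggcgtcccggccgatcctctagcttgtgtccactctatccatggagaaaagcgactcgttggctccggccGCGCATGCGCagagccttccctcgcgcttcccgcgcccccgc
Ndufaf4: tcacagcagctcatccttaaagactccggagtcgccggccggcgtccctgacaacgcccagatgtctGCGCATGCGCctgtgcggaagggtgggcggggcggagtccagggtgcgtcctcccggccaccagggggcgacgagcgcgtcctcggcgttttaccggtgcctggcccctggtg

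The motif begins 60, 162, 42 and 113 bases before the start in these 4 promoters. The lower call of Ndufaf4 was lost without replicate 1 of the CD4+ cells, with centring and with the mean of its probe sets. Any part of the motif or of Nrf1 in the levels was not tested. The YY1 motif was in 6 windows (8.57%, against 1.41% of genes), the ESRRA letters TCAAGGTCA in 2 (2.86%, against 0.377%) and the GABPA letters CCGGAAGT in 4 (5.71%, against 5.69%), each on either strand. A shorter NRF1 core, GCATGCGC, which lies within the full motif, was in 12 (17.1%, against 3.93%). These matches are a description of the windows.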

How the data were processed

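The authors deposited log2 expression values from Affymetrix mouse arrays with perfect-match probes. Per the submitters' processing notes, GCRMA and version 1.2.1 of Affymetrix Expression Console were used; the settings, and whether the 10 arrays were normalized jointly, are not given in the sources used here. RNA labelling used 100 ng per sample, per the labels' protocols. The number of arrays limits the precision.

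Of 45141 probe sets, 104 controls were left out, 28898 had 1 gene symbol in the platform annotation, 551 several and 15588 none. Each gene was taken by its probe set with the highest mean, which gave 17097 genes, and 11037 with at least 2 arrays above the 50th percentile of their array were tested. limma 3.58.1 in R 4.3.3 fitted 4 group means (6 residual degrees of freedom), and the 4 comparisons were adjusted over all tested genes. The procedure was tested on simulated data.

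Members, gene lists and naming rule were chosen with earlier results of these data known. The rule picked, per complex, up to 4 called members with the largest difference and no overlap of arrays, called members of the opposite sign, the Sdh genes, tissue isoforms and up to 3 called genes of each pathway list. Other genes named are examples. Not every gene picked is described above, as for Mrpl27 (1.48 in CD49b+ against CD4+ cells), Mrps6 (-1.19, CD49b+ minus CD25+) and Tfb1m (0.62 in CD25+ against CD4+ cells).

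Replicate numbers were checked by correlating deviations of like-numbered arrays from their group means: over the 3 numbers of CD49b+ and CD25+ arrays every value was over 0.1 (0.16, 0.37 and 0.64), which was taken as pairing, from the data alone. The other comparisons share 2 numbers, too few for that rule: 0.24 and 0.53 for CD25+ with CD4+, 0.09 and 0.52 for CD49b+ with CD4+, and -0.21 for both of injected with naive. Alternatives were other filters, scalings, probe set rules, fits, blocks and left-out arrays.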

Additional observations from a re-analysis of the deposited data

Results flagged for a closer look

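Sdhaf1, which helps insert iron-sulfur clusters in complex II, was called in opposite directions in the subsets. It was at 7.60 and 8.05 in CD4+ cells of injected mice, 6.97, 7.41 and 6.73 in CD49b+ cells and 8.53, 9.03 and 8.18 in CD25+ cells. The subsets differed by -1.54 ± 0.23 (CD49b+ minus CD25+, limma, adjusted p = 0.000799), with -0.78 and 0.75 against CD4+ cells. The first of these calls was lost with centring (-0.59, adjusted p = 0.0727), and the other under quantile normalization (0.68, adjusted p = 0.0583) and without replicate 1 of the CD4+ cells (0.53, adjusted p = 0.253) or replicate 1 (0.78, adjusted p = 0.0738) or 2 (0.53, adjusted p = 0.103) of the CD25+ cells.

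Idh2, the mitochondrial NADP-dependent isocitrate dehydrogenase, went the opposite way. It was at 7.78 and 7.88 in CD4+, 8.14, 8.10 and 8.10 in CD49b+ and 7.04, 7.29 and 7.25 in CD25+ cells. The subsets differed by 0.92 ± 0.08 (limma, adjusted p = 2.94e-05), with 0.28 and -0.64 against CD4+ cells. The call of 0.28 was lost under quantile normalization (0.18, adjusted p = 0.175) and without replicate 1 of the CD4+ cells (0.23, adjusted p = 0.154), and a dim probe set gave -0.11 between the subsets.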

How the results depend on the processing

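Leaving out each array in turn gave 22 to 54 members higher and 3 to 4 lower in CD49b+ against CD4+ cells (median 0.28 to 0.49), 4 to 33 and 3 in CD25+ against CD4+ cells (0.07 to 0.29), 4 to 17 and 0 to 2 between the subsets (0.10 to 0.25), and 0 between injected and naive mice (-0.19 to 0.04). In the first 3 of these comparisons 22.6% to 27.7%, 13.9% to 20.9% and 12.6% to 17.3% of all genes were higher. With arrays centred on their medians, 2 members were lower in CD49b+ cells (median 0.57), 47 higher in CD25+ cells (median 0.34) and 26 higher between the subsets. Quantile normalization gave 9 higher in CD25+ cells and 2 lower between the subsets. Without a dim filter 5 were lower in CD25+ cells, beside 29.1% of all genes, and the mean of the probe sets gave 0 lower between the subsets. A fit of the compared arrays alone gave 10 higher in CD25+ cells. Array weights, the replicate block and a block with the naive numbers crossed each gave 1 member lower after injection, beside 2.74%, 2.9% and 3.89% of all genes. With the block, the CD25+ comparison with CD4+ cells had 27 members higher (3 lower), beside 24% and 18.8% of all genes. That of CD49b+ cells had 57 (4 lower), beside 32% and 24.1%. Between the subsets 33 members were higher and 2 lower, beside 21.3% and 15.2%. In the 6 subset arrays alone these were 31 and 2, beside 20.7% and 15.2%. Without both arrays of high poly-A signal, chosen after seeing the data, 9 were higher in CD25+ cells, and 5 higher and 0 lower between the subsets. Subunits alone gave 2 lower in CD49b+ cells and 0 lower between the subsets. The mean of the probe sets turned Sdha (-0.08), Uqcrq (-0.16) and Mfn2 (-0.04) in CD49b+ cells and Sdha (-0.05) and Cox5b (0) in CD25+ cells. Over the named genes 2511 values kept direction and side of the threshold, 183 lost a call, 37 gained one and 5 turned.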
